A study of Mus musculus with 45 samples.

Results

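The first wave of gene induction was measured as the difference between mouse hippocampal primary neurons treated with bicuculline (Bic) for 0.5 h and untreated neurons of the same culture preparations. The comparison used 10 of the 45 libraries of the series, chosen by their treatment labels, namely 5 of untreated cultures (control) and 5 of cultures given Bic (50 µM) for 0.5 h. Both groups held hippocampal cultures from newborn C57BL/6N mice, used on day in vitro 10 or 11, for which the labels name a strain and no other genotype. Cytosine arabinoside, which kills dividing cells, had been added to all cultures. A library is thus a mixed culture of neurons and remaining glia. Each of the preparations numbered 1, 3, 6, 7 and 8 gave 1 control and 1 Bic library, and the fit was paired by this number. The other 35 libraries carried longer Bic treatments or additional drugs. Values by culture are given below in the order of these preparation numbers. A level is given as CPM, a gene's reads scaled to a fixed library total, and not divided by transcript length, so that levels are compared between cultures and not between genes.

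Bic blocks GABA type A receptors. With inhibition removed, the neurons of such a network fire action potentials in synchronized bursts, and calcium enters through NMDA receptors and voltage-gated channels. Calcium-activated kinases then act on transcription factors that already sit at immediate early genes, such as CREB at cAMP response elements (CRE) and SRF with its ELK partners at CArG boxes, so that these genes are transcribed without new protein synthesis. Their products include transcription factors that act on later genes, synaptic proteins such as Arc, and phosphatases and repressors that limit the signal.

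Of 54532 annotated genes, 14783 had enough reads to be tested. Of these, 80 had higher levels after 0.5 h Bic, which is 0.541% of the genes, and 0 were lower, which is 0%, by edgeR's quasi-likelihood test with the preparation as a block and a Benjamini-Hochberg adjusted p-value under 0.05. At an unadjusted p-value under 0.05, 528 genes (3.57%) were higher and 309 (2.09%) lower. DESeq2 with the block called 91 higher and 0 lower, and without it, on every gene that had 1 read or more, 83 higher and 1 lower. Over all 14 alternatives, which are described at the end, 55 to 147 genes were called higher and 0 to 18 lower. The called genes were few at this threshold, and their fold changes ranged widely, with 39 at a log2 fold change up to 1. Among the 80 genes, 8 had a log2 fold change above 3, 21 above 2 and 41 above 1, the median was 1.01 and the smallest 0.33. All 80 rose in 5 of 5 preparations, whereas 724 of all genes tested were higher in 5 of 5 and 458 lower in 5 of 5. For 60 of the 80, every Bic library was above every control library, which held for 107 of all genes tested, and 37 had every Bic library below every control library (together 0.974% of the genes tested). Together the 80 genes took 2967 to 3360 CPM in the control cultures and 7202 to 8671 CPM after Bic. The bulk libraries do not tell more RNA per cell from more cells that express a gene.

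**Figure D1:**
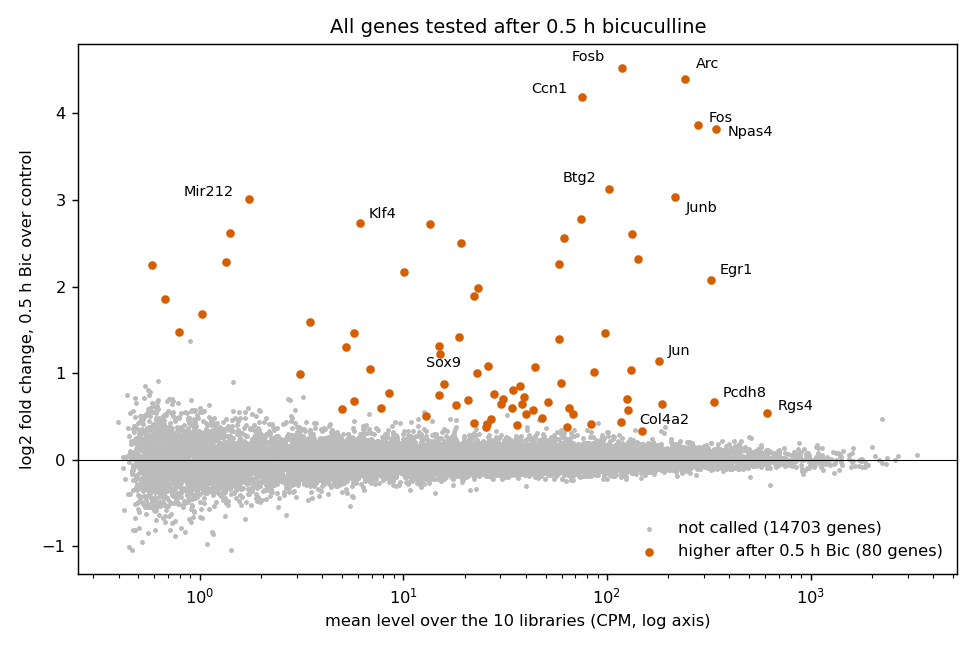
Log2 fold change (0.5 h Bic over control, vertical axis) against the mean level over the 10 libraries in CPM (horizontal log axis) for the 14783 genes tested. The 80 genes called higher are orange and lie above 0, with Rgs4 at the highest mean level among them, and the genes not called are grey.

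The Mir132/Mir212 locus is shown first, because it gave 3 of the 80 genes and its sequences carry a shared feature. Mir212 and Mir132, which the annotation gives as genes of their own (GRCm38, chr11:75173388-75173478, plus strand, and chr11:75173682-75173747, plus strand), lie inside the non-coding transcript 1700016P03Rik (chr11:75172560-75177633, plus strand). Of their mature microRNAs in RefSeq (build GRCm38.p6), both 3p arms have the same seed, the bases 2 to 8 that pair with target mRNAs, and the 5p arms differ from them and from each other. The seed is in capitals:
miR-132-3p: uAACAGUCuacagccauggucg
miR-212-3p: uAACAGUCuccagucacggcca
miR-132-5p: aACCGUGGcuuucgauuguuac
miR-212-5p: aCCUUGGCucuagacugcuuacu

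The libraries hold poly-A RNA, so that reads on these genes come from the primary transcript and are no measure of the mature microRNAs. The transcript 1700016P03Rik was at 3.79, 3.31, 3.44, 4.06 and 3.18 CPM in the control and 15.4, 21.9, 34.04, 21.2 and 25.2 CPM after 0.5 h Bic. It rose 6.596-fold (log2 fold change 2.72 ± 0.15, SE, n = 5 preparations, adjusted p = 3.88e-06), and the groups did not overlap. Mir212 was at 0.4401, 0.2298, 0.338, 0.673 and 0.104 CPM in the control and 2.85, 2.604, 3.98, 3.44 and 2.79 CPM after 0.5 h Bic. Its reads were few, 351 over the 10 libraries, and its fitted log2 fold change was 3.01 ± 0.25 (adjusted p = 0.000124). Mir132, with 289 reads, had a log2 fold change of 2.62 ± 0.28 (adjusted p = 0.000825). Neither of the microRNA genes nor 1700016P03Rik had overlapping groups. Of the other 3 microRNA host transcripts tested, 0 were called, namely Mir22hg (log2 fold change 0.099), Mir124a-1hg (-0.04) and Mir9-3hg (0.02).

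The 250 bases before their RefSeq transcription starts (build GRCm38.p6) were searched for short motifs on both strands, except the TATA box, which was searched on the strand of the gene. Of the 74 protein-coding genes called, 63 (85.1%) had a promoter in the table, some of them with several starts. The full CRE, TGACGTCA, stood before 10 of these 63 genes (15.9%) and before 1.77% of all 27025 genes of the table. The half-site TGACG, which reads CGTCA on the other strand and which the full CRE contains on both, stood before 38 (60.3%) and before 19.8% of all. Among the 27 with a log2 fold change above 1, 20 (74.1%) had the half-site, and among the 36 below that, 18 (50.0%) did. The full CRE was not more frequent in the 27, with 4 (14.8%) against 6 (16.7%) of the 36. For the TATA box the counts were 6 (22.2%) and 7 (19.4%). The TATA box TATAAA was found before 13 (20.6%) and before 8.94% of all, the CArG box before 2 (3.17%) and before 1.62% of all, and the AP-1 site TGANTCA before 1 (1.59%) and before 7.82% of all. Called genes without a promoter in the table included Arc, Ier2, Egr1 and Egr3. The study describes Arc and Egr1 as partly controlled by SRF. Sites beyond the 250 bases were not searched, so that the CArG share is partial. Among the 10657 tested protein-coding genes with a promoter, which were 79.5% of all those tested, 3.07% had the full CRE, 30.3% the half-site and 4.72% the TATA box, but since less than 80% of that set was matched its shares are partial. These matches describe letters in the window and were not tested as binding sites.

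The promoters of 4 genes that rose strongly, described below, are printed with CRE, half-sites and TATA box in capitals, to show a pair of separate half-sites (Fos, Npas4) beside a full CRE (Btg2, Dusp1):
Fos (chr12:85473640-85473889, plus strand): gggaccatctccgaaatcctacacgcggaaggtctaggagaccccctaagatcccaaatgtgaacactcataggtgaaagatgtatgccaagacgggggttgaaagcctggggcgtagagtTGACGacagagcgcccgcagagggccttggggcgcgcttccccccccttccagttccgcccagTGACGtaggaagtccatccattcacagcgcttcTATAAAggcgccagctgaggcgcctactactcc
Npas4 (chr19:4989972-4990221, minus strand): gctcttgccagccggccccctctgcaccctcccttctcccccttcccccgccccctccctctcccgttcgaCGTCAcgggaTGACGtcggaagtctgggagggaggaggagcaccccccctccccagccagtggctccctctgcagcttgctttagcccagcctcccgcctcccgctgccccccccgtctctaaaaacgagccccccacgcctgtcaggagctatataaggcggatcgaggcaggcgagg
Btg2 (chr1:134079156-134079405, minus strand): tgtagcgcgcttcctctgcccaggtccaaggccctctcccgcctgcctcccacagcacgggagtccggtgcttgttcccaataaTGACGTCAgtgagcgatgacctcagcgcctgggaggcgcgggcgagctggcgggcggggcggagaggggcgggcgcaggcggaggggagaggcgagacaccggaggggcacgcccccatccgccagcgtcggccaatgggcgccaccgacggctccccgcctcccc
Dusp1 (chr17:26508473-26508722, minus strand): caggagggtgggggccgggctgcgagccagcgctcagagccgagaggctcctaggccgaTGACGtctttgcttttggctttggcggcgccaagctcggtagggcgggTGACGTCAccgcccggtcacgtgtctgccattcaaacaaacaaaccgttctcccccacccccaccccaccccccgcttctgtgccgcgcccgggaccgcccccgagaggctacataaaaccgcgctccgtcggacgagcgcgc

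The gene lists below were chosen with earlier results of these data known. Their counts of called members describe the lists and are no test of a gene family. Over all genes tested, 0.541% were called higher. Genes of the AP-1 family, whose products bind DNA as dimers of Fos and Jun proteins, rose in 6 of 11 members tested. Fosb had the largest fold change of all called genes, and its level was 12.1, 5.05, 9.62, 10.4 and 13.5 CPM in the control and 134, 237, 284, 219 and 267 CPM after 0.5 h Bic. It rose 23.02-fold (log2 fold change 4.52 ± 0.23, SE, n = 5 preparations, adjusted p = 1.92e-06). The lowest Bic library, that of preparation 1, was still well above the highest control library. Fos (chr12:85473890-85477273, plus strand) was at 41.4, 29.5, 32.3, 45.5 and 33.3 CPM in the control and 424, 555, 552, 556 and 538 CPM after 0.5 h Bic, a rise of 14.6-fold (log2 fold change 3.86 ± 0.13, SE, n = 5 preparations, adjusted p = 7.64e-08). Of the Bic libraries, 4 were within 538 to 556 CPM and preparation 1 was lower. Junb was at 52.02, 39.2, 40.03, 59.95 and 45.6 CPM in the control and 375, 369, 375, 429 and 372 CPM after 0.5 h Bic, and rose 8.19-fold (log2 fold change 3.03 ± 0.08, SE, n = 5 preparations, adjusted p = 3.72e-08) with groups far apart. Jun, at 112 ± 11.9 CPM in the control and 247 ± 18.6 CPM after 0.5 h Bic (SD, n = 5), rose 2.21-fold (log2 fold change 1.14 ± 0.06, SE, n = 5 preparations, adjusted p = 4.30e-06).

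The small Maf protein gene Maff rose 2.46-fold (log2 fold change 1.302 ± 0.19, SE, n = 5 preparations, adjusted p = 0.0115), with overlapping groups. Atf3, a stress-responsive member of the wider family, was at 5.55, 5.88, 7.22, 4.18 and 28.7 CPM in the control and 10.6, 18.2, 22.2, 13.8 and 35.7 CPM after 0.5 h Bic. Its control library of preparation 8 was above 4 of the 5 Bic libraries, and its call (log2 fold change 1.22 ± 0.195, adjusted p = 0.0185) was lost in 6 of 14 alternatives, among them the fit without the block and those without preparation 6 or 7. The other 5 members tested were not called, with log2 fold changes of 0.78 (Fosl1), 0.38 (Jund), 0.21 (Mafk), 0.18 (Fosl2) and 0.0037 (Mafg). The median of the 11 was 1.14, beside 0.0049 for all genes tested.

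**Figure D2:**
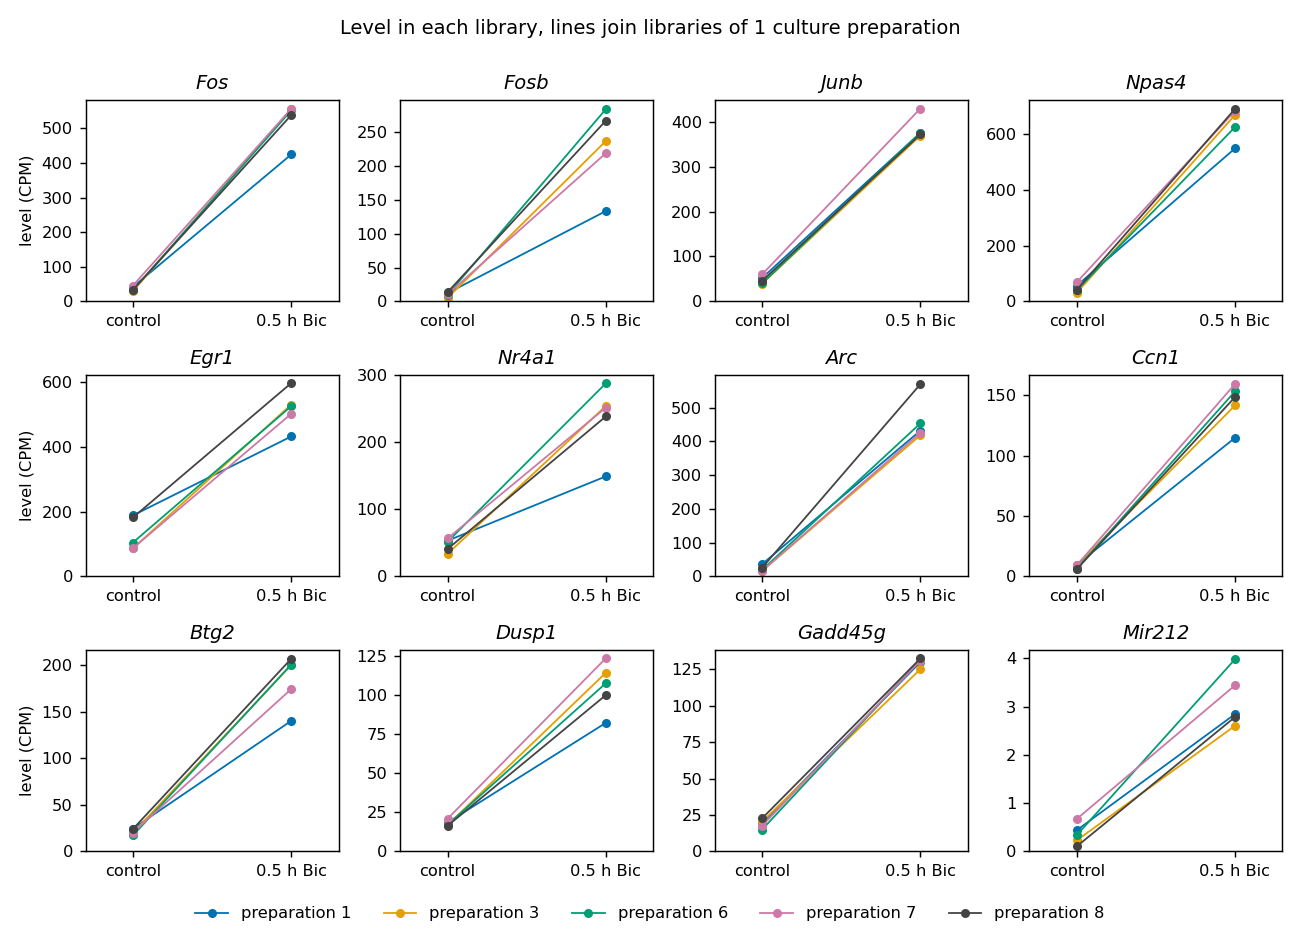
Level in CPM (vertical axes, each from 0) of 12 called genes in the control and after 0.5 h Bic, with a line joining the 2 libraries of each of the 5 preparations. Every line rises, and for Fos, Fosb, Npas4, Egr1, Nr4a1, Ccn1, Btg2 and Dusp1 preparation 1 has the lowest level after Bic.

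Npas4, a transcription factor found in neurons and induced by calcium entry, was at 55.9, 30.4, 39.7, 68.4 and 41.2 CPM in the control and 549, 669, 625, 683 and 691 CPM after 0.5 h Bic. It rose 14.1-fold (log2 fold change 3.82 ± 0.17, SE, n = 5 preparations, adjusted p = 6.17e-07) and the groups did not overlap. Its dimer partners did not pass the test, with log2 fold changes of 0.201 (Arnt), 0.104 (Arntl) and 0.09 (Arnt2). Arnt2 was at 412 ± 49.97 CPM in the control and 436 ± 30.8 CPM after 0.5 h Bic (SD, n = 5).

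All 4 Egr zinc finger factors rose and their corepressors Nab1 and Nab2 did not pass the test (log2 fold changes 0.01 and 0.12). Egr1 was at 188, 86.7, 105, 87.2 and 182 CPM in the control and 432, 531, 526, 502 and 597 CPM after 0.5 h Bic. It rose 4.23-fold (log2 fold change 2.08 ± 0.18, SE, n = 5 preparations, adjusted p = 0.000211), and its control libraries fell into a lower set (preparations 3, 6 and 7) and a higher set (1 and 8) that remained below every Bic library. Egr4 was at 50.1, 28.2, 33.7, 34.3 and 44.2 CPM in the control and 248, 214, 205, 241 and 231 CPM after 0.5 h Bic and rose 6.097-fold (log2 fold change 2.61 ± 0.096, SE, n = 5 preparations, adjusted p = 1.38e-07). Egr2 was at 6.02 ± 2.03 CPM in the control and 32.3 ± 7.52 CPM after 0.5 h Bic (SD, n = 5), with a log2 fold change of 2.51 ± 0.21 (adjusted p = 0.000143). Egr3 had the smallest fold change of the 4, with a log2 fold change of 1.04 ± 0.10 (adjusted p = 0.00039) from 85.9 CPM. Whether the 4 fold changes differ from each other was not tested.

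Among the Nr4a orphan nuclear receptors, Nr4a1 was at 53.2, 33.6, 51.6, 56.5 and 40.8 CPM in the control and 149, 254, 288, 251 and 238 CPM after 0.5 h Bic. It rose 5.003-fold (log2 fold change 2.32 ± 0.17, SE, n = 5 preparations, adjusted p = 3.89e-05). Nr4a2 rose 2.02-fold (log2 fold change 1.01 ± 0.08, SE, n = 5 preparations, adjusted p = 9.36e-05). Nr4a3 was not called (log2 fold change 0.09, adjusted p = 0.818), and its control level was 315 ± 48.8 CPM. Of 13 Klf zinc finger factors tested only Klf4 was called. It was at 1.496, 2.02, 1.76, 1.47 and 1.62 CPM in the control and 4.55, 14.6, 14.1, 11.5 and 8.18 CPM after 0.5 h Bic and rose 6.64-fold (log2 fold change 2.73 ± 0.16, SE, n = 5 preparations, adjusted p = 4.81e-06), with the smallest Bic level in preparation 1. The median of the 13 was 0.083.

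Transcription factors outside these families were also higher. Sox9, a factor of neural progenitors and astrocytes, was at 11.8, 21.5, 10.2, 18.003 and 15.5 CPM in the control and 22.8, 35.8, 38.5, 33.2 and 22.7 CPM after 0.5 h Bic. It rose 2.003-fold (log2 fold change 1.002 ± 0.16, SE, n = 5 preparations, adjusted p = 0.0181), the groups were next to each other without overlap, and the call was lost without preparation 1 or 7. The other 7 astrocyte markers tested were not called, with log2 fold changes of at most 0.096 (Aqp4). The bZIP repressor Nfil3 (log2 fold change 0.53 ± 0.09, adjusted p = 0.0295) and the bHLH factor Nhlh2 (log2 fold change 0.59 ± 0.101, adjusted p = 0.0308) rose by smaller amounts with overlapping groups. Nuclear cofactors and chromatin proteins rose with log2 fold changes under 1, namely Mbd6 (0.81), Spty2d1 (0.72), the polycomb protein gene Cbx8 (0.63), Irf2bp2 (0.600), Pnrc1 (0.47), Cited2 (0.37) and Irf2bpl (0.33).

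Of 20 early effectors of synapses and signaling, a list chosen with earlier results known, 10 rose, beside 0.541% of all genes tested. Arc, whose product is a postsynaptic protein that acts in AMPA receptor trafficking, was at 36.4, 16.2, 19.3, 16.7 and 25.7 CPM in the control and 432, 418, 454, 426 and 569 CPM after 0.5 h Bic. It rose 21.1-fold (log2 fold change 4.397 ± 0.16, SE, n = 5 preparations, adjusted p = 1.21e-07). Ccn1, a secreted matrix-associated protein gene, was at 9.59, 9.098, 6.21, 9.19 and 5.89 CPM in the control and 115, 142, 153, 159 and 148 CPM after 0.5 h Bic and rose 18.3-fold (log2 fold change 4.19 ± 0.14, SE, n = 5 preparations, adjusted p = 7.64e-08). For both genes the lowest Bic library was several times the highest control library.

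Ptgs2, which encodes cyclooxygenase-2 of prostaglandin synthesis, was at 5.63, 2.803, 3.48, 4.59 and 2.19 CPM in the control and 11.7, 13.7, 24.7, 15.99 and 15.6 CPM after 0.5 h Bic. It rose 4.49-fold (log2 fold change 2.17 ± 0.21, SE, n = 5 preparations, adjusted p = 0.000397), and preparation 1 had the lowest Bic value. The small GTPase gene Arl4d rose 3.71-fold (log2 fold change 1.89 ± 0.09, SE, n = 5 preparations, adjusted p = 8.98e-07). Moderate rises were seen for Rgs2, a regulator of G protein signaling (log2 fold change 0.71 ± 0.09, adjusted p = 0.00439), the protocadherin gene Pcdh8 (log2 fold change 0.66 ± 0.05, adjusted p = 9.92e-05), the kinase gene Plk2 (log2 fold change 0.65 ± 0.06, adjusted p = 0.000495), Fbxo33 (log2 fold change 0.59 ± 0.096, adjusted p = 0.0203), the EGF receptor inhibitor Errfi1 (log2 fold change 0.58 ± 0.09, adjusted p = 0.0137) and the kinase gene Sgk1 (log2 fold change 0.48 ± 0.06, adjusted p = 0.00305). Pcdh8 was at 262, 262, 239, 298 and 232 CPM in the control and 439.8, 420.3, 353, 464 and 376 CPM after 0.5 h Bic, and even the highest control library was below the lowest Bic library. The other 10 were not called, with log2 fold changes between -0.077 (Rheb) and 0.27 (Gem), and among them were Homer1 (0.08), Ccn2 (0.24) and Arl5b (0.26). The median of the 20 was 0.38.

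Of 16 MAP kinase phosphatases and Ras/ERK inhibitors tested, 4 were called, all of them Dusp genes. Dusp1 was at 18.5, 16.9, 17.1, 20.9 and 16.4 CPM in the control and 82.1, 114, 107, 123 and 99.8 CPM after 0.5 h Bic and rose 5.88-fold (log2 fold change 2.56 ± 0.09, SE, n = 5 preparations, adjusted p = 7.64e-08). Dusp6, which dephosphorylates ERK, was at 64.6, 50.1, 47.997, 48.9 and 51.4 CPM in the control and 142, 135, 148, 139 and 155 CPM after 0.5 h Bic and rose 2.75-fold (log2 fold change 1.46 ± 0.07, SE, n = 5 preparations, adjusted p = 2.14e-06). Each had groups that did not overlap. Dusp5 (log2 fold change 0.75 ± 0.08, adjusted p = 0.00148) and Dusp4 (log2 fold change 0.52 ± 0.08, adjusted p = 0.0165) rose less. Spry2 was close to the threshold (log2 fold change 0.32 ± 0.06, adjusted p = 0.0516, higher in 5 of 5 preparations), and the 16 members had a median of 0.11.

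Of 7 mRNA decay and antiproliferative genes tested, 4 rose, the 2 Btg and 2 Tob genes, whose products bind the CCR4-NOT deadenylase. Btg2 was at 24.6, 20.04, 17.3, 20.4 and 24.1 CPM in the control and 140.4, 200.3, 201, 175 and 207 CPM after 0.5 h Bic, a rise of 8.73-fold (log2 fold change 3.13 ± 0.12, SE, n = 5 preparations, adjusted p = 2.38e-07). Tob1 (log2 fold change 1.07 ± 0.09, adjusted p = 0.00012), Btg1 (log2 fold change 0.703 ± 0.07, adjusted p = 0.000616) and Tob2 (log2 fold change 0.68 ± 0.102, adjusted p = 0.0118) rose as well. None of the 3 Zfp36 genes passed the test, Zfp36l2 being nearest (log2 fold change 0.42 ± 0.08, adjusted p = 0.0516). Of the 3 Gadd45 genes, which act in stress signaling and DNA demethylation, 2 rose. Gadd45g was at 19.4, 20.5, 15.1, 17.7 and 22.7 CPM in the control and 129.9, 125, 131, 131 and 132 CPM after 0.5 h Bic, with the Bic libraries within a narrow range, and rose 6.88-fold (log2 fold change 2.78 ± 0.09, SE, n = 5 preparations, adjusted p = 7.64e-08). Gadd45b rose 3.97-fold (log2 fold change 1.99 ± 0.12, SE, n = 5 preparations, adjusted p = 8.47e-06), and Gadd45a did not pass the test (log2 fold change 0.105).

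Ier2 was at 24.03, 21.6, 15.2, 18.4 and 23.2 CPM in the control and 96.9, 94.8, 87.7, 102 and 100.6 CPM after 0.5 h Bic and rose 4.79-fold (log2 fold change 2.26 ± 0.08, SE, n = 5 preparations, adjusted p = 1.48e-07), the larger of 2 calls among 4 Ier genes tested, the other being Ier5 (log2 fold change 0.64 ± 0.06, adjusted p = 0.00024). Of 9 Trib, Pim and Csrnp genes, the pseudokinase gene Trib1 (log2 fold change 1.08 ± 0.09, adjusted p = 0.00012), Csrnp1 (log2 fold change 0.595 ± 0.104, adjusted p = 0.0323) and the kinase gene Pim3 (log2 fold change 0.403 ± 0.06, adjusted p = 0.00749) rose. Of 11 NF-kB factors and inhibitors, the nuclear inhibitor genes Nfkbiz (log2 fold change 1.05 ± 0.09, adjusted p = 0.000138) and Nfkbid (log2 fold change 0.99 ± 0.13, adjusted p = 0.00395) rose, whereas the classical feedback inhibitor Nfkbia did not pass the test (log2 fold change -0.08). Within the list of CREB, its coactivators and feedback genes, 1 of 14 was called. This was Sik1, a kinase that restrains the CREB coactivators, at 25, 22.8, 25.3, 33.6 and 26.03 CPM in the control and 32.4, 54.5, 57.1, 51.9 and 44.2 CPM after 0.5 h Bic (log2 fold change 0.85 ± 0.12, adjusted p = 0.00666). The control library of preparation 7 was above the Bic library of preparation 1, and within each preparation Sik1 was higher after Bic. Per1 was not called (log2 fold change 0.43, adjusted p = 0.148).

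**Figure D3:**
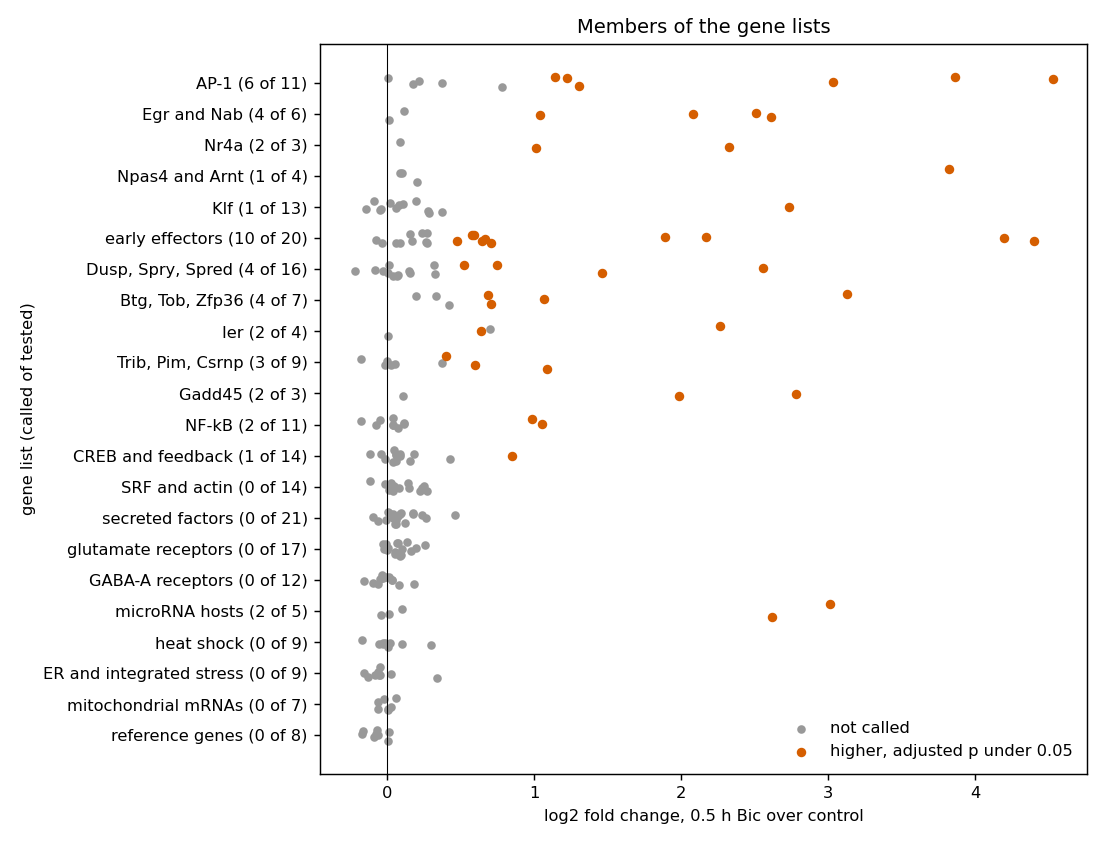
Log2 fold change of the tested members of 22 gene lists (horizontal axis), 1 point per gene and 1 row per list, with points spread vertically for sight only. Called members are orange, and each label gives called of tested, from 6 of 11 AP-1 factors to 0 of 8 reference genes.

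Lists of later and constitutive genes had no called member, where the share called over all genes tested was 0.541%. With so low a share, lists of this size can lack a call without differing from other genes. This held for 14 SRF, ELK and MRTF factors with actin targets (median log2 fold change 0.063), 21 secreted growth factors and neuropeptides (0.057), 17 glutamate receptors and postsynaptic proteins (0.073), 12 GABA type A receptor subunits (-0.018), 9 cytosolic heat shock genes (-0.013), 9 genes of the integrated and endoplasmic reticulum stress responses (-0.057), 7 mitochondrially encoded mRNAs (0.0047) and 8 reference genes (-0.073). In the same order, log2 fold changes were above 0 for 12, 18, 14, 5, 4, 2, 4 and 2 members. Over all genes tested this held for 51.8%. The summed level of the secreted factors was higher in 5 of 5 preparations, and that of the other lists in 0 (reference genes) to 3. The lists do not hold every gene of their kind. The called genes Ppp1r15a, Atf3 and Arc belonged to none of these lists. Bdnf, the neurotrophin gene best known for induction by synaptic activity, was at 107 ± 22.5 CPM in the control and 111 ± 22.7 CPM after 0.5 h Bic (SD, n = 5), with a log2 fold change of 0.047 ± 0.077 (adjusted p = 0.898, higher in 3 of 5 preparations). The standard error of the paired fit exceeded the log2 fold change of Bdnf. Srf (log2 fold change 0.27 ± 0.08, adjusted p = 0.433) and Vgf (log2 fold change 0.26 ± 0.06, adjusted p = 0.196) did not pass the test either.

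Of the 80 called genes, 45 belonged to a list and 35 to none. Among the latter were membrane and signaling genes, among them the inward rectifier potassium channel gene Kcnj2, at 12.9, 7.996, 12.2, 8.87 and 9.65 CPM in the control and 15.9, 30.2, 41.3, 22.7 and 26.9 CPM after 0.5 h Bic. It rose 2.67-fold (log2 fold change 1.42 ± 0.18, SE, n = 5 preparations, adjusted p = 0.00305), least in preparation 1. The accessory potassium channel subunit Kcne4 rose from 0.436 to 1.14 CPM (log2 fold change 1.48 ± 0.27, adjusted p = 0.0411) with overlapping groups. The Ras-like genes Rasl11a (log2 fold change 1.31 ± 0.100, adjusted p = 7.13e-05) and Rasl11b (log2 fold change 0.76 ± 0.07, adjusted p = 0.00025) both rose without overlap. Rgs4, with the highest mean CPM of the called genes, a value not scaled for length, was at 437, 524, 488, 603 and 448 CPM in the control and 600.4, 674, 811, 738 and 799 CPM after 0.5 h Bic (log2 fold change 0.53 ± 0.08, adjusted p = 0.0144). Its highest control library was above its lowest Bic library. The ALK ligand gene Alkal2 (log2 fold change 0.43 ± 0.07, adjusted p = 0.0295) was the call lost most often, in 9 of 14 alternatives.

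Further called genes were C2cd4b (log2 fold change 1.595 ± 0.13, adjusted p = 0.000117), Ccno (log2 fold change 1.47 ± 0.14, adjusted p = 0.000455), the deubiquitinase gene Otud1 (log2 fold change 0.88 ± 0.099, adjusted p = 0.00141), the phosphatase subunit gene Ppp1r15a (log2 fold change 0.66 ± 0.08, adjusted p = 0.00185) and Midn (log2 fold change 0.41 ± 0.08, adjusted p = 0.0449). Genes of RNA metabolism were the RNA-binding protein gene Mex3b (log2 fold change 0.64 ± 0.06, adjusted p = 0.000346), the poly(A) polymerase gene Tent5a (log2 fold change 0.68 ± 0.12, adjusted p = 0.032) and the splicing regulator gene Ptbp1 (log2 fold change 0.38 ± 0.06, adjusted p = 0.0285). Ptp4a1 (log2 fold change 2.28 ± 0.24, adjusted p = 0.000867) was counted at 0.457 ± 0.172 CPM in the control. Its symbol belongs to 2 overlapping annotated genes on 1 strand, and reads that overlap both were not counted, so that its level is uncertain. The same holds for Gm13889 (log2 fold change 1.39 ± 0.08, adjusted p = 3.88e-06), which shares exon bases with Gm27027.

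The collagen genes, which encode extracellular matrix proteins, were singled out after their values were seen. Of 39 collagen genes tested, 4 were called, 34 had a log2 fold change above 0 beside 51.8% of all genes tested, 11 were higher in 5 of 5 preparations and the median was 0.23. The basement membrane gene Col4a2 was at 122, 105, 111, 107 and 67.02 CPM in the control and 168, 177, 144, 167 and 106 CPM after 0.5 h Bic, and rose 1.49-fold (log2 fold change 0.57 ± 0.07, SE, n = 5 preparations, adjusted p = 0.00204). Preparation 8 was lowest in both groups, so that the groups overlapped while each culture rose. Col4a1, which shares a promoter region with Col4a2 on the opposite strand, was at 118, 102, 103, 112 and 64.7 CPM in the control and 147, 171, 122, 150.1 and 87.9 CPM after 0.5 h Bic (log2 fold change 0.43 ± 0.07, adjusted p = 0.0295). Col11a1 (log2 fold change 0.51 ± 0.07, adjusted p = 0.00787) and Col5a1 (log2 fold change 0.41 ± 0.07, adjusted p = 0.0287) also rose, and all 4 calls were lost without the block over the same genes. Of 5 fibroblast markers, 0 were called, and their summed level was 99.7 to 289.7 CPM in the control and 113 to 281 CPM after Bic. Their part in the result was not tested. The matrix protease gene Adamts1 (log2 fold change 0.89 ± 0.08, adjusted p = 0.000154) rose without overlap.

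Of the 80 genes, 6 were non-coding by their annotation. Besides the 3 of the Mir132 locus these were Gm17024, an intronic model inside Ifrd1 (log2 fold change 1.69 ± 0.205, adjusted p = 0.0024), and the small nucleolar RNA genes Gm24119, inside Slc25a3 (log2 fold change 2.25 ± 0.31, adjusted p = 0.00654), and Snora31, inside Tpt1 (log2 fold change 1.86 ± 0.32, adjusted p = 0.0294). All 3 had mean levels of at most 1.56 CPM after Bic, and poly-A libraries do not capture mature small nucleolar RNAs as such. Their host genes did not pass the test, with log2 fold changes of 0.02 (Ifrd1), -0.0093 (Slc25a3) and -0.04 (Tpt1).

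Leaving out preparations or changing the fit kept 50 of the 80 calls in all 14 alternatives and lost 30 in at least 1, and 0 changed direction. Without the block 18 of the 80 calls were lost, and leaving out preparation 1, 3, 6, 7 or 8 lost 12, 0, 16, 24 and 20 calls. The calls lost in 6 or more alternatives were those of Alkal2, Nhlh2, Midn, Tent5a, Atf3, Cited2, Col4a1, Col5a1, Irf2bpl and Ptbp1. Those lost in 3 or 4 were Csrnp1, Fbxo33, Kcne4, Nfil3, Dusp4, Errfi1, Rgs4 and Snora31. Col11a1, Gm24119, Pim3 and Tob2 were among those lost without preparation 7, and Ier5 and Ppp1r15a were lost without the block. All genes with a log2 fold change above 2 except the low-count Gm24119 kept their calls wherever they had a value.

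The response was not equally large in all cultures. Preparation 1 had the smallest within-preparation ratio for 45 of the 80 genes, against 12 for preparation 3, 4 for preparation 6, 11 for preparation 7 and 8 for preparation 8. The median log2 ratio of the 80 genes (CPM plus 0.5) was 0.67, 0.91, 1.17, 0.84 and 1.00 in the 5 preparations. The summed level of the 80 genes rose 2.29-, 2.76-, 2.90-, 2.54- and 2.83-fold. When a preparation was left out of the fit, 69 of 71 genes then called higher rose in preparation 1 itself, 95 of 103 in preparation 3, 64 of 64 in preparation 6, 55 of 55 in preparation 7 and 60 of 60 in preparation 8. Of all genes, 47.5% (preparation 3) to 53.3% (preparation 1) rose in the preparation left out. The called genes with a log2 fold change above 1 rose in each case (40, 37, 34, 37 and 39 genes). Without preparation 1, the 40 genes had a median fitted log2 fold change of 2.31 and a median log2 ratio of 1.17 in preparation 1 itself. The same medians were 2.14 and 2.09 for preparation 3, 2.24 and 2.37 for preparation 6, 2.19 and 1.74 for preparation 7 and 2.06 and 2.04 for preparation 8. The 2 libraries of preparation 1 were the shallowest of their groups, at 11316580 and 12338915 reads on genes. The part of depth in this difference was not tested.

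**Figure D4:**
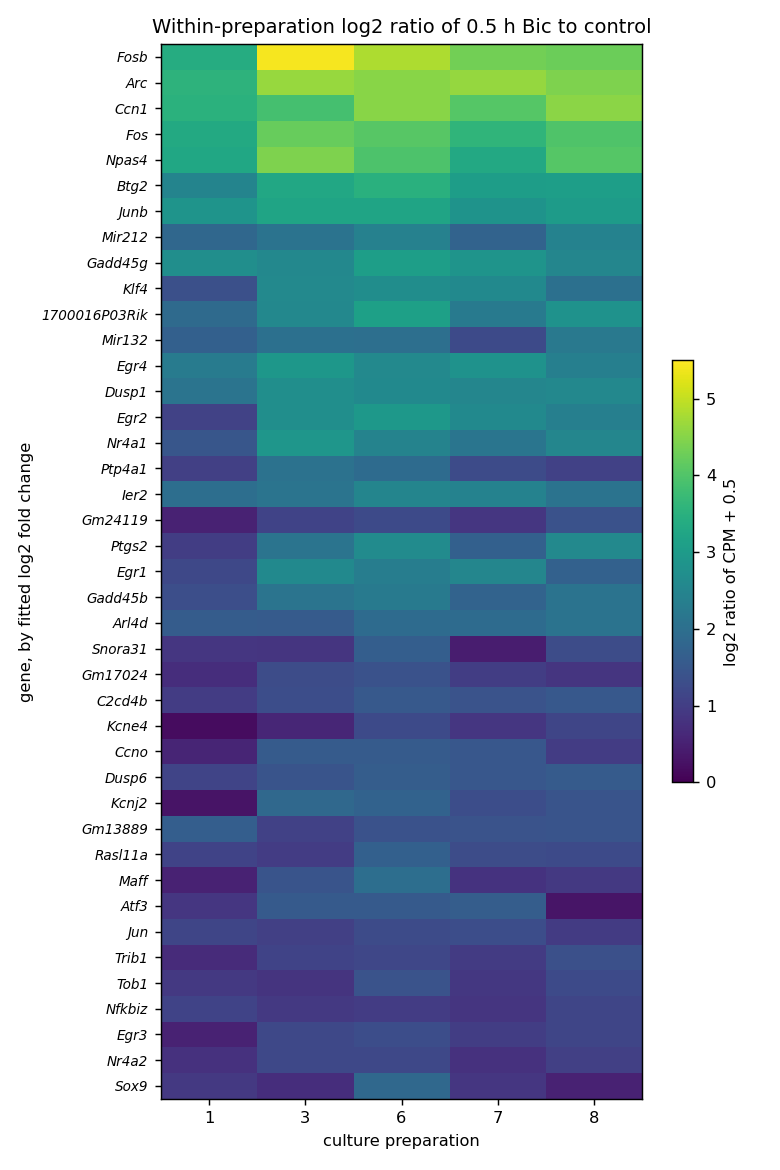
Log2 ratio of 0.5 h Bic to control in each preparation (columns, colour scale from 0 to 5.5, CPM plus 0.5) for the 41 called genes with a fitted log2 fold change above 1, in the order of that value. Every ratio is above 0, and for Fosb, Arc, Ccn1, Fos, Npas4, Klf4 and Kcnj2 the smallest ratio lies in the column of preparation 1.

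The called genes were compact. The 74 protein-coding ones had a median genomic span of 5802 bp (GENCODE M21, GRCm38), against 26825 bp for 13411 protein-coding genes tested, and a median of 4 exons in the transcript with most exons, against 9. A span under 10000 bp was found for 67.6% of the called genes and 22.2% of the tested genes, and a span over 100000 bp for 6.76% and 16.5%. The 35 with a log2 fold change above 1 were shorter still, with a median of 4259 bp and 0% over 100000 bp. The genes above 100000 bp included Col4a2, Col4a1, Col5a1, Col11a1 and Sgk1. These are descriptions over genes, which are not replicates.

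**Figure D5:**
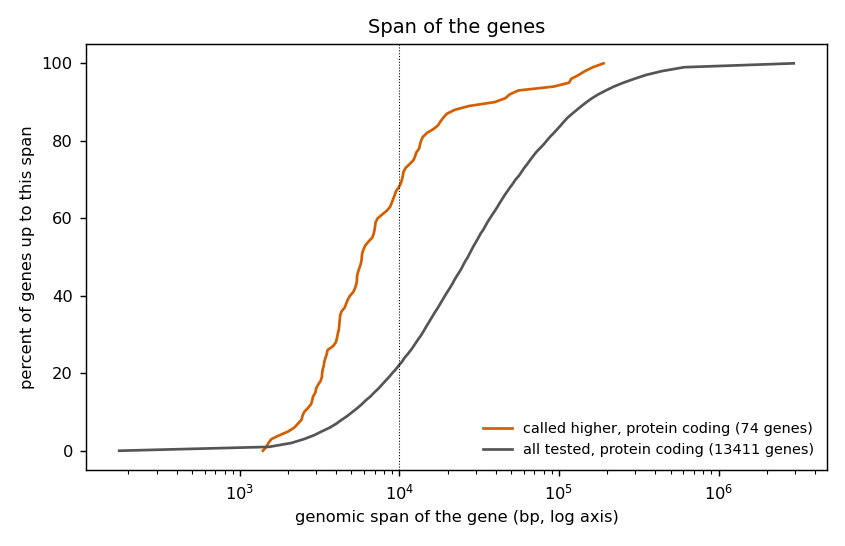
Percent of genes up to a given genomic span (horizontal log axis in bp) for the 74 called and the 13411 tested protein-coding genes. The dotted line marks 10000 bp, which 67.6% of the called and 22.2% of the tested genes do not reach.

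Most of the genes were at higher levels still after longer Bic treatment. The group mean peaked at 2 h for 58 of the 80 genes, at 1 h for 18 and at 0.5 h for 4. Fos was at 525 ± 56.8 CPM at 0.5 h, 1038 ± 97.1 CPM at 1 h and 1538 ± 235 CPM at 2 h (SD, n = 5). Fosb was at 228 ± 58.7 CPM at 0.5 h, 651 ± 101.4 CPM at 1 h and 1191 ± 155 CPM at 2 h. Genes with the highest mean at 1 h included the feedback gene Dusp1, at 105 ± 15.6 CPM at 0.5 h, 216 ± 26.6 CPM at 1 h and 175 ± 29.5 CPM at 2 h, and Btg2, at 185 ± 27.7 CPM at 0.5 h, 352 ± 32.5 CPM at 1 h and 245 ± 43.4 CPM at 2 h. The 4 genes that were highest at 0.5 h were Col4a2, Col4a1, Col11a1 and Gm24119. Col4a1 was at 136 ± 31.6 CPM at 0.5 h, 109 ± 25.9 CPM at 1 h and 118 ± 30.4 CPM at 2 h, values that overlapped in their SDs. These later time points shared the control libraries and preparations with the 0.5 h comparison and are given as levels only.

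No gene passed the test for a lower level. The 5 genes with the smallest p among those that fell were Yod1 (log2 fold change -0.39 ± 0.08, adjusted p = 0.114), Gm20045 (log2 fold change -0.98 ± 0.21, adjusted p = 0.146), Pabpn1 (log2 fold change -0.35 ± 0.08, adjusted p = 0.146), Gm42894 (log2 fold change -0.44 ± 0.100, adjusted p = 0.178) and Iqck (log2 fold change -1.04 ± 0.24, adjusted p = 0.196). Yod1, which encodes a deubiquitinase, was at 14.7, 17.1, 17.7, 15.98 and 15.7 CPM in the control and 12.5, 12.8, 12.8, 10.5 and 14.1 CPM after 0.5 h Bic. It was lower in 5 of 5 preparations, and it was the 1 gene called lower by DESeq2 without the block. Over the 14 alternatives its adjusted p ranged from 0.00134 to 0.714 and was under the threshold in 5. With the block on every gene that had 1 read or more, Gm20045, Pabpn1, Gm42894 and Iqck were also called lower by edgeR. Gm20045 and Gm42894 were also called with 20 libraries in the fit, Pabpn1 without preparation 3, and Iqck with 20 or 45 libraries. In the other alternatives they did not pass. Iqck was at 1.23, 2.48, 1.35, 2.12 and 2.14 CPM in the control and 1.22, 1.07, 0.871, 0.518 and 1.304 CPM after 0.5 h Bic.

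The cultures held the markers of neurons and glia. In the sum over the markers of a list, taken in each library, 7 excitatory neuron markers were at 1988 to 2971 CPM in the control and 2358 to 2818 CPM after Bic, and 7 interneuron markers at 1275 to 1850 and 1413 to 1820 CPM. The 8 astrocyte markers were at 1019 to 1358 and 1139 to 1256 CPM, with 225 CPM of Gfap and 529 CPM of Slc1a2 on average in the control. Oligodendrocyte lineage markers were at 116.8 to 196.1 and 122.9 to 194.2 CPM. Microglial, endothelial and mural markers were low, with at most 28.4 CPM in sum, and the endothelial marker Cldn5 had 3 reads in all 10 libraries. Sox9 was the 1 gene called among the 42 markers tested, of 50 listed. Depth ranged from 11316580 to 50527649 reads on genes in the control (median 21039805) and from 12338915 to 27638221 after Bic (median 16644936). Of the 10 libraries, 0 were identical to another.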

How the data were processed

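RNA-seq was analysed for 5 control libraries and 5 libraries after 0.5 h Bic (50 µM). According to the submitters' processing notes and the study's methods, the authors aligned single-end reads of 75 cycles from stranded poly-A libraries with STAR 2.5.4b to GRCm38, counted them per gene of Ensembl release 94 with featureCounts 1.6.5 on the sense strand without multimapping or multiply overlapping reads, and deposited the raw counts. All 45 count columns were matched to samples by their labels. The authors tested with DESeq2's Wald test, for which the methods give no design formula, and that test without a block is among the alternatives here.

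The counts were tested with edgeR 4.0.16 in R 4.3.3 (TMM, filterByExpr with a minimum count of 10, quasi-likelihood F test, preparation as a block). SE is the absolute log2 fold change divided by the square root of F. P-values were adjusted by Benjamini-Hochberg over the 14783 genes tested, and a call needed an adjusted p-value under 0.05. DESeq2 1.42.0 was an alternative, 1 of 14. CPM values used TMM factors over all 45 libraries, and within-preparation log2 ratios used a pseudocount of 0.5 CPM. Depth was 11316580 to 50527649 reads on genes per library, lowest in both libraries of preparation 1. Gene spans came from GENCODE M21, which held 54495 of the 54532 gene IDs, and sequences from RefSeq.

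The labels give each preparation number to 1 control and 1 Bic library of the same culture preparation. Over 13453 genes, deviations from the group means correlated at 0.382 on average within a preparation (0.0393 to 0.642) and at -0.0946 between preparations, and 8 of 10 libraries correlated best with their own. On simulated data of 14653 genes for this comparison, the test recovered 40 of 40 genes at a log2 fold change of 1 and 33 of 40 at 0.5, and 14 of 196 calls (7.14%) were false.

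Named were the 30 largest rises, the 5 falling genes with the smallest p (since under 3 were called lower), the 5 called genes with the highest mean, list members and up to 5 non-coding or unnamed gene models. Other called genes were named after their values were seen, to account for the 80, of which 1 is not reported here by name. The gene lists and the rule were chosen with earlier results of these data known.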

Additional observations from a re-analysis of the deposited data

Results flagged for a closer look

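Of 242 groups of 5 values looked at, 10 (4.13%) held a library far from the other 4 of its group by Dixon's test, and chance flags about 1 group in 20. Preparation 1 was the low value in 4 of them. After Bic, Fos was at 424.4 CPM there against 538.2 to 556.2 CPM in the others, and Tob1 at 43.91 CPM against 61.29 to 68.28 CPM. The log2 ratio of Bic to control in preparation 1 was 3.552 for Arc, against 4.442 to 4.646, and 0.136 for Spty2d1, against 0.7196 to 0.8958. In the control, Dusp6 was high in preparation 1, at 64.61 CPM against 48.0 to 51.37 CPM.

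Preparation 8 stood apart for Arc after Bic (569.5 CPM against 418.2 to 453.5 CPM), for Atf3 in the control (28.69 CPM against 4.179 to 7.223 CPM) and for Col4a1 in the control (64.73 CPM against 102.4 to 117.7 CPM). Junb after Bic was highest in preparation 7, at 429.4 CPM against 369.0 to 375.3 CPM. The log2 ratio of Cited2 was lowest in preparation 3, at 0.215 against 0.3778 to 0.4332.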

How the results depend on the processing

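The number of genes called higher stayed within 1.5 times the 80 of the paired test in 13 of 14 alternatives, and leaving out 1 preparation gave 55 (without preparation 7) to 103 (without preparation 3). With the block and no filter beyond 1 read in any library, where the prior degrees of freedom became infinite, 147 were higher and 18 lower. With no replicate block, 62 were higher and 0 lower over the same genes, and 87 and 0 without that filter, so that 18 and 9 of the 80 calls were lost. The number called lower was otherwise 1 by DESeq2 without the block (Yod1), 6 with 20 libraries in the fit, 9 with 45, and 0 to 2 without 1 preparation each, the 2 being Pabpn1 and Yod1 without preparation 3. The cause of these differences was not tested. Of the 80 genes, 0 changed direction in any alternative. Low counts limit Mir212, Mir132, Ptp4a1, Gm24119 and Snora31. A mean CPM filter of 1 left 77 of the 80 genes with a value.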
